A study of Mus musculus with 50 samples.

Results

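Cystatins were followed in the testis and spinal cord of the wobbler mouse (wr/wr). The set held 6 genes: Cst12, Cst13, Cst9, Cst8, Cst3 and Cstb. Its members were every probe whose platform gene symbol was one of these names, and 5 genes of the 9930 named on the array met that rule, Cst12, Cst13, Cst9, Cst3 and Cstb, with 1 probe each among 20355. Cst8 was matched by no named probe and was not analysed here. The genes were selected on testis ratios of these arrays, those of Cst12 and Cst13 above all, so every testis value of the 5 probes is given as a description and carries no test.

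Mutant RNA was always wr/wr, homozygous for the wobbler allele, and the comparator was always wt, pooled RNA of the same organ from wild-type mice. The labels give no ages and name no treatment. In testis, 10 mutant mice were each measured on 4 arrays. In cord, 3 mutant RNAs were measured: pool1 (mice 6069, 6335, 6493 and 5997) and pool2 (mice 5906, 5905, 6065 and 6163) on 4 arrays each, and mouse 5995 alone on 2 arrays. The 9 cord mice also gave a testis, and mouse 5907 gave a testis only. The wild-type pool is listed by the labels as 10 mice and by the labelling protocol as 6, the same 10 identifiers standing for both organs. The wobbler allele is present in every tissue of the body, so a ratio in whole testis or whole cord can move with the cells' RNA content or with the share of a cell type, and the array values do not tell fewer cells from less RNA per cell.

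Cystatins are small proteins that block cysteine proteases of the papain family, the cathepsins of the lysosome among them. Family members of the secreted kind, such as cystatin C (Cst3), leave the cell by the secretory route, whereas stefins such as cystatin B (Cstb) stay in the cytosol and nucleus. Mice carry a cluster of secreted cystatins with expression in the male reproductive tract, and several of these lack residues that an inhibitor of papain needs. The wobbler mutation lies in Vps54, a subunit of the tethering complex that returns vesicles from endosomes to the trans-Golgi network, and it leads to motor neuron degeneration and to sperm without a normal acrosome.

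In the RefSeq order of mouse chromosome 2 the cluster runs Cstl1, Cst11, Cstdc1, Cst12, Cst8, Cst13, Cst9, Cstdc2 and Cst3, and Cstb stands apart on chromosome 10. The starts of the 4 clustered members that had a probe are printed here so that their bases can be set beside the ratios that follow. Each window holds 250 bases before and 50 after the RefSeq start site (GRCm38.p6), written 5′ to 3′ along the gene, and capitals mark CG dinucleotides. Cst12 starts on the plus strand at chr2:148789115-148789414, Cst13 on the plus strand at chr2:148819849-148820148, Cst9 on the plus strand at chr2:148834897-148835196, and Cst3 on the minus strand at chr2:148875463-148875762.
Cst12: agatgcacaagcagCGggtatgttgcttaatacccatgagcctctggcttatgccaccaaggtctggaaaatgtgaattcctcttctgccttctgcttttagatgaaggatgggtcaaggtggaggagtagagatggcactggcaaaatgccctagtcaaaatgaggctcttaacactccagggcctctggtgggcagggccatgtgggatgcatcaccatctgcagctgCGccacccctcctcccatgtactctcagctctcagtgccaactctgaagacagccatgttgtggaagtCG
Cst13: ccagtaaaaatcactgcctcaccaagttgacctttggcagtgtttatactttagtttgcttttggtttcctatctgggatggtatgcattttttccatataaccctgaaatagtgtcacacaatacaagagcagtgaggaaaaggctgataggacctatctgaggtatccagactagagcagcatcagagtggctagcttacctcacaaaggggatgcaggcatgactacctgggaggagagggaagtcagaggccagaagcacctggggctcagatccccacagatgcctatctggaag
Cst9: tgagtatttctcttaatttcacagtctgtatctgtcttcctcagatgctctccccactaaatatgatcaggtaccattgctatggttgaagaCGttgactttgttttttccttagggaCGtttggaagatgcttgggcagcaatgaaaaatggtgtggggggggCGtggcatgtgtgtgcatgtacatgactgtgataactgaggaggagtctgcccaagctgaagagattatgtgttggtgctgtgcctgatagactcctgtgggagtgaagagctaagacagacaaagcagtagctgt
Cst3: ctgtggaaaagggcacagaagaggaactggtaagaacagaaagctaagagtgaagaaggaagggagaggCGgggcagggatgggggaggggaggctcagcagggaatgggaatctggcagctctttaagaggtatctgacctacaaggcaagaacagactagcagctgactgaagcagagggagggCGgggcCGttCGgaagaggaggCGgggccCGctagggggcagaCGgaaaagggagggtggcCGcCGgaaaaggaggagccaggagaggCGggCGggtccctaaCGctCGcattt

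The Cst3 window stood apart in base composition, with 13 CG dinucleotides and 60.3% G and C. Cst12 and Cst9 each had 3 CG dinucleotides and Cst13 had 0, where the median of 32851 windows of this length was 7. At least 13 were present in 37.9% of those windows and at least 3 in 76.7%. The Cst8 window had 1. Among 5 short words searched on both strands, Cst3 held GGGCGG at positions -67 and 26 relative to the start (35.7% of all windows hold it) and AGAACA at -218 and -100 (19.0% of windows). TATAAA was found in 1 of the 5 cystatin windows, on the reverse strand at -208 in that of Cst13, and in 13.6% of all windows. AACAAT (10.7% of windows) and TGACG (20.8% of windows) were in none of the 5. These are matches of letters only.

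Values are the authors' deposited log2 ratios, read as wr/wr over wild type. The direction was taken from how the labels order the channels, and it is likely rather than stated, as is the log base. Array medians were set to 0. For every mouse or cord RNA, the arrays carrying mutant cDNA in Cy5 and those carrying it in Cy3 were averaged apart, and the mean of the 2 averages was its ratio. Testis arrays held 19070 to 20189 probe values and cord arrays 18338 to 20034. Agreement between the dye orientations over all probes was weak, with Pearson's r from -0.242 in mouse 6065 to 0.231 in mouse 5907 for testis and from -0.336 to -0.103 for cord. The limma test against 0, adjusted by Benjamini-Hochberg, called 2494 of 20218 testis probes (12.3%; 1471 higher and 1023 lower), and 752 to 2580 when 1 mouse was left out. That count fell more than 1.5-fold without mouse 6493 (752), 6069 (998), 6335 (1233), 5907 (1241), 5995 (1494) or 5906 (1539). In cord it called 0 of 17055 (0%), with 1476 at an unadjusted p under 0.05 and a smallest adjusted p of 0.542. The difference between the tissues was called at 3604 of 17005 probes (21.2%), and at 0 of 16983 in the paired fit, where each cord RNA was set against the testes of its own mice. That fit rests on only 3 differences per probe, so a call lost in it does not tell 1 gene from another. Ratios hold no level, so the organ labels could not be checked against defining markers. The tests take the wild-type pool as fixed, so its own spread is left out.

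Of the 5 members, 0 were called in cord against 0% of all probes. The testis ratios took part in choosing the genes, so no testis or tissue-difference calls are given for them.

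**Figure D1:**
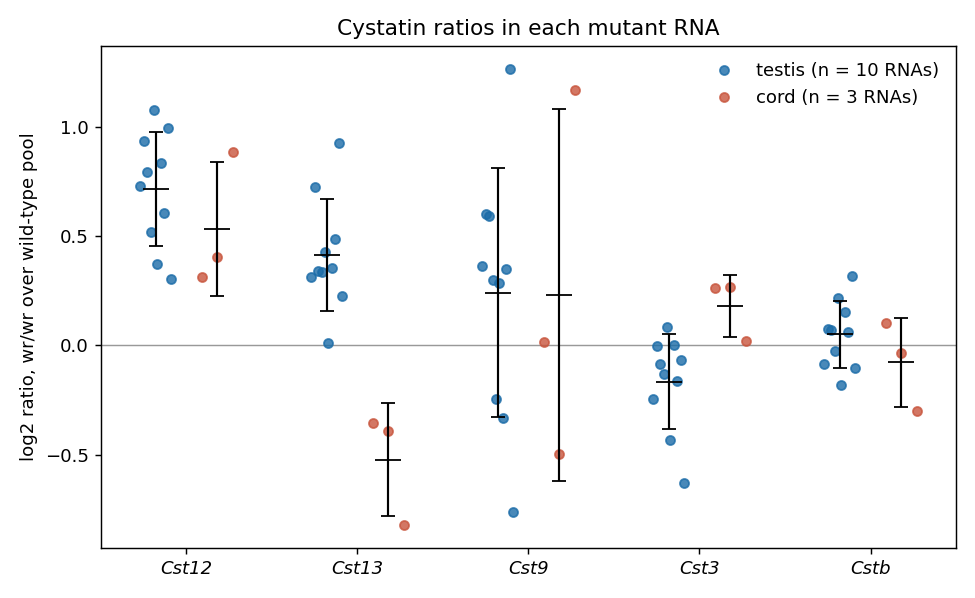
Log2 ratio of wr/wr over the wild-type pool (vertical axis) for the 5 cystatin probes, 1 point per mutant RNA, with 10 testis RNAs in blue and 3 cord RNAs in red; black bars give the mean and SD. All 10 testis points of Cst12 and of Cst13 lie above 0, the 3 cord points of Cst13 lie below 0, and the Cst9 points span -0.76 to 1.26 in testis.

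Cst12, a secreted cystatin of the male reproductive tract, had the highest testis ratio of the set. It was 0.73 in mouse 5906, 0.94 in 5907, 0.79 in 6069, 0.52 in 6335, 1.08 in 5995, 0.37 in 5905, 0.83 in 6493, 0.61 in 6163, 0.996 in 6065 and 0.31 in 5997. Every mouse was above the wild-type pool, with 5995 and 6065 at the top and 5997 and 5905 at the bottom. The mean log2 ratio was 0.72 ± 0.26 (SD, n = 10), a 1.64-fold higher signal. A lower mean was found for 99.8% of probes tested in testis, a description only, since the gene was chosen on this ratio. All 40 arrays were above 0, from 0.133 to 1.499. The mean was 0.78 with the mutant RNA in Cy5 and 0.65 with it in Cy3, above 0 in 10 of 10 mice either way.

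In cord, the Cst12 ratio was 0.31 in pool1, 0.40 in pool2 and 0.88 in mouse 5995. All 3 RNAs were above 0, with a mean of 0.53 ± 0.31 (SD, n = 3). The limma test gave an adjusted p of 0.542, the smallest reached by any cord probe. Its unadjusted p was 0.0328, where 1476 of 17055 cord probes had one under 0.05. The pool1 value rested on the Cy3 arrays, which averaged 0.62 where the Cy5 arrays averaged 0.003. Mouse 5995 gave both the highest testis and the highest cord value of this gene. The testis mean exceeded the cord mean by 0.18, less than the SD within either tissue.

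Cst13, the cystatin 2 genes further along the cluster, was also above 0 in every testis. The ratio was 0.31 in mouse 5906, 0.72 in 5907, 0.34 in 6069, 0.34 in 6335, 0.43 in 5995, 0.01 in 5905, 0.35 in 6493, 0.49 in 6163, 0.92 in 6065 and 0.22 in 5997. Mice 6065 and 5907 stood highest, and mouse 5905 was level with the wild-type pool. The mean was 0.41 ± 0.25 (SD, n = 10), or 1.33-fold, and 38 of 40 arrays were above 0. The Cy5 arrays averaged 0.48 and the Cy3 arrays 0.35. A lower testis mean was found for 99.2% of probes, again a description, since the gene was chosen on this ratio.

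In the cord Cst13 lay on the other side of 0. The ratio was -0.35 in pool1, -0.39 in pool2 and -0.82 in mouse 5995, a mean of -0.52 ± 0.26 (SD, n = 3). Only 4.68% of probes tested in cord had a lower mean. The limma test against 0 did not call it, with an adjusted p of 0.542, the smallest of any cord probe (unadjusted p = 0.0260). The size depended on the dye, with -0.27 in Cy5 and -0.77 in Cy3, and in pool1 and pool2 the Cy5 arrays averaged -0.01 and -0.05. The testis mean exceeded the cord mean by 0.94, a value given without a test because the testis ratios entered the choice of the gene. No intensities were used, so whether the cord signal of Cst13, Cst12 or Cst9 stood above background was not assessed. If the cord arrays with mutant RNA in Cy3 are turned in sign, a reading of the table added after its values were seen, the cord mean becomes 0.25 and the opposition of the tissues is lost.

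Cst9, known as testatin and expressed by the supporting cells of the fetal testis, varied most among mice. It was 0.36 in mouse 5906, 0.60 in 5907, 0.59 in 6069, 0.30 in 6335, -0.24 in 5995, 0.29 in 5905, -0.33 in 6493, 0.35 in 6163, 1.26 in 6065 and -0.76 in 5997. In 7 mice the ratio was above 0 and in 3 it was below, and the mean of 0.24 ± 0.57 (SD, n = 10) was smaller than its SD. It was 0.13 without mouse 6065 and 0.35 without mouse 5997. Repeat arrays of the same mouse and dye differed by an SD of 0.113, and 92.7% of probes had a smaller SD among mice. The sign was the same in both dye orientations in all 10 mice: in mouse 5997 the Cy5 and Cy3 means were -0.60 and -0.92, in mouse 6065 they were 1.65 and 0.88. Labelling or hybridisation that differed between mice was not tested.

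In cord, Cst9 was 0.02 in pool1, -0.50 in pool2 (3 of its 4 arrays had a value) and 1.17 in mouse 5995. The cord mean was 0.23 ± 0.85 (SD, n = 3; limma adjusted p = 0.792). Without mouse 5995 that mean was -0.24, without pool2 it was 0.59, and with the cord Cy3 arrays turned in sign it was -0.10. Mouse 5995 was high in cord and below 0 in testis, and its 1.17 came from a Cy3 array at 2.06 and a Cy5 array at 0.27. With 1 array per dye, no repeat stands behind either value.

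**Figure D2:**
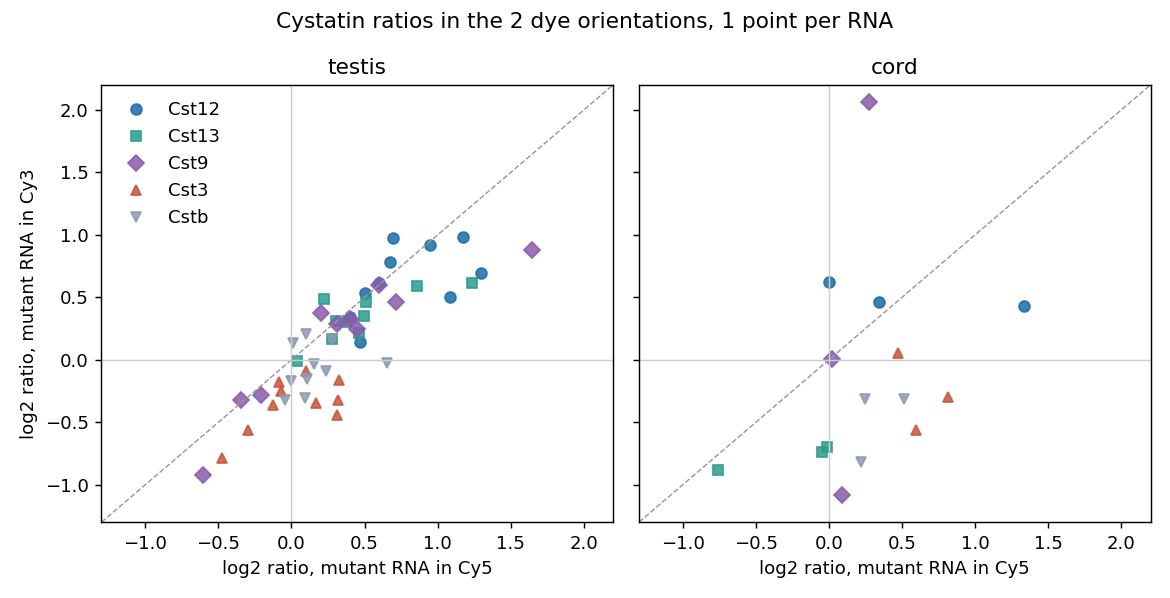
Mean log2 ratio with the mutant RNA in Cy5 (horizontal axis) against that with the mutant RNA in Cy3 (vertical axis), 1 point per RNA and gene, for testis (left, 10 mice) and cord (right, 3 RNAs); the dashed line marks equal values. In testis all 10 Cst12 points are above 0 on both axes, each Cst9 point has the same sign on both, and all 10 Cst3 points lie below the line, as do the 3 Cst3 and 3 Cstb points in cord.

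Cst3 encodes cystatin C, a widely made secreted inhibitor that is abundant in cerebrospinal fluid. Its testis ratio was -0.24 in mouse 5906, -0.00 in 5907, -0.09 in 6069, -0.13 in 6335, 0.08 in 5995, -0.43 in 5905, 0.00 in 6493, -0.16 in 6163, -0.07 in 6065 and -0.63 in 5997. Mice 5997 and 5905 were low, and 8 of 10 mice were below 0, several of them by very little. The mean was -0.17 ± 0.22 (SD, n = 10), smaller in size than its SD. It came from 1 orientation: the Cy3 arrays averaged -0.35 with 0 of 10 mice above 0, and the Cy5 arrays 0.02 with 5 of 10. Cy5 exceeded Cy3 in all 10 mice, by 0.37 on average, where the median size of that gap over all probes was 0.156.

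The cord ratio of Cst3 was 0.26 in pool1, 0.27 in pool2 and 0.02 in mouse 5995. The mean was 0.18 ± 0.14 (SD, n = 3; limma adjusted p = 0.578), and 1 testis lay within the cord range. Here the orientations disagreed in sign, 0.63 in Cy5 against -0.27 in Cy3. No direction can be read for Cst3 in cord from these arrays.

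Cstb, the cytosolic stefin whose loss in humans causes a progressive myoclonus epilepsy, stayed near 0 in testis. Its ratio was -0.09 in mouse 5906, 0.07 in 5907, 0.07 in 6069, -0.03 in 6335, 0.22 in 5995, -0.18 in 5905, 0.15 in 6493, 0.06 in 6163, 0.32 in 6065 and -0.10 in 5997. The mice fell on both sides of 0, and the mean was 0.05 ± 0.15 (SD, n = 10). In cord it was 0.10 in pool1, -0.03 in pool2 and -0.30 in mouse 5995, a mean of -0.08 ± 0.20 (SD, n = 3; limma adjusted p = 0.807). The cord arrays gave 0.33 in Cy5 and -0.48 in Cy3, so that the mean near 0 averages opposite signs.

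By mean testis ratio the order was Cst12, Cst13, Cst9, Cstb and Cst3. Neighbours in this order overlapped in their mice: the Cst12 range of 0.31 to 1.08 met the Cst13 range of 0.01 to 0.92, and the Cst9 range of -0.76 to 1.26 contained those of the other 4. These are ratios to the wild-type pool, and no level of 1 gene is set against that of another.

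The order of the mice was set side by side between cystatins. Mouse 5997 was lowest for Cst12, Cst9 and Cst3 and second lowest for Cst13 and Cstb, and mouse 6065 was highest for Cst13, Cst9 and Cstb. Over all probes tested in testis, ratios spread widest in mice 5907 (SD 0.65) and 6065 (SD 0.53). With arrays scaled to a common spread, the SD among mice fell from 0.26 to 0.18 for Cst12 and from 0.25 to 0.15 for Cst13. The part of this array-wide spread in the order of the mice was not tested. Across the 10 mice, Cst12 went with Cst3 at a Pearson's r of 0.886 (Spearman's rho 0.903), with Cstb at 0.855 (0.927), with Cst13 at 0.709 (0.782) and with Cst9 at 0.392 (0.418). Without mice 5905 and 5997, the farthest from the Cst12 median, these became 0.741, 0.751, 0.517 and 0.0538. Cst3 and Cstb went together at 0.773 (0.903). Cst9 went with Cst13 at 0.612 (0.564), with Cst3 at 0.375 (0.176) and with Cstb at 0.345 (0.345). Without mice 5997 and 6065, the farthest from the Cst9 median, its r was -0.378 with Cst3, -0.497 with Cstb, 0.175 with Cst13 and -0.313 with Cst12. The points share arrays, the wild-type pool and the centring, so the values are descriptions of these mice and carry no p.

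**Figure D3:**
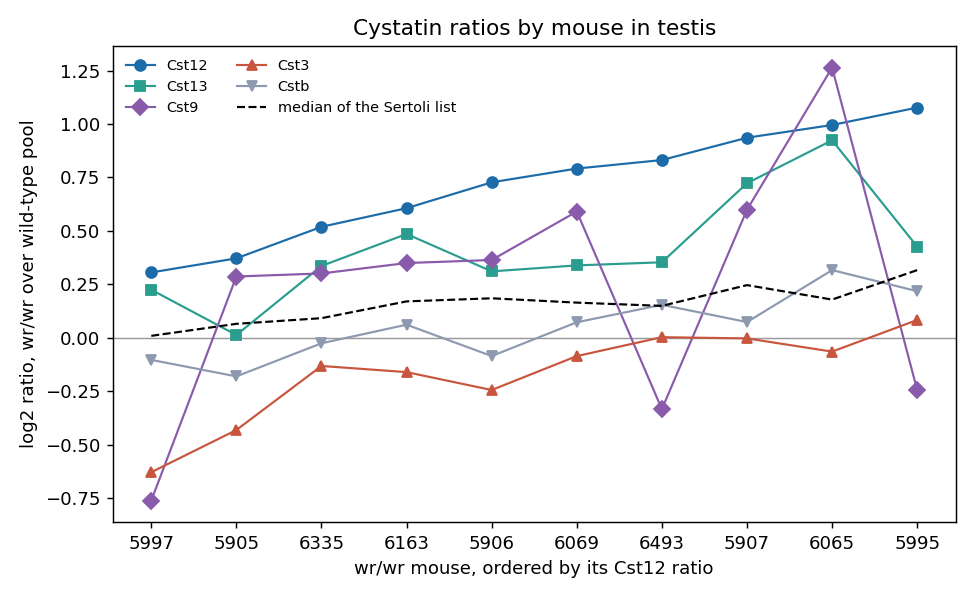
Testis log2 ratio (vertical axis) of the 5 cystatins in each of the 10 wr/wr mice, ordered along the horizontal axis by the Cst12 ratio, with the median of the Sertoli marker list dashed. Cst3 and Cstb broadly climb with Cst12 from mouse 5997 toward mouse 5995, while Cst9 falls below 0 in mice 5997, 6493 and 5995.

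Among 20217 other probes, 407 (2.01%) had an r above 0.8 with Cst12 over the 10 mice, and the median r was -0.0167. Of the members, Cst3 ranked 93 in that order, Cstb 189, Cst13 965 and Cst9 4061. The 5 named genes most like Cst12 were Tsc22d1, a transcriptional regulator of the leucine zipper type (r = 0.950), Unc50 (0.949), the ribosomal protein gene Rpl6 (0.949), Lonp1, a mitochondrial protease (0.947), and Dnajc7, a co-chaperone (0.946). Likeness of order did not bring likeness of mean: Tsc22d1 averaged -0.01 ± 0.10, Dnajc7 0.11 ± 0.08, Lonp1 0.12 ± 0.18, Unc50 0.22 ± 0.17 and Rpl6 0.22 ± 0.15 (SD, n = 10), all below the Cst12 mean of 0.72.

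Markers of testis cell types are given beside these values, and 12.3% of all testis probes were called. Of 16 Sertoli probes tested in testis, 7 were called higher and 0 lower (limma, adjusted p under 0.05), with a list median of 0.16 against -0.01 for all probes. Only 11 of the 16 had a mean above 0. Over all 17 probes of the list, the median per mouse ran from 0.00875 in mouse 5997, where Cst12 was lowest, to 0.32 in mouse 5995, where Cst12 was highest. It was 0.18 in mouse 6065, where Cst12 was second highest. Clu, a Sertoli product named here after its value was seen, rose by 0.39 ± 0.20 (adjusted p = 0.0097, n = 10). Trf of the same list, also named after its values were seen, averaged -0.16 and -0.02 by probe (limma adjusted p = 0.247 and 0.899). Of 12 Leydig probes 0 rose and 5 fell (median -0.14), of 13 macrophage probes 0 rose and 5 fell (median -0.11), and of 15 round spermatid probes 0 rose and 2 fell (median 0.05). Among 19 elongating spermatid probes 1 rose and 0 fell, the mouse medians running from -0.51 in 5995 to 0.34 in 5907. Among 9 spermatocyte probes 3 rose and 1 fell (median 0.09). None of 5 epididymis probes was called (median 0.08). The part of any of these in the cystatin ratios was not tested.

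Other cystatins and stefins came from a list of 20 genes, of which 6 had a probe. In testis 1 of the 6 was called higher and 0 lower, a share near the 12.3% of all probes, with a median of -0.05. That gene was Cstl1, which opens the same cluster on chromosome 2. Its ratio was 0.30 in mouse 5906, 0.71 in 5907, 0.42 in 6069, 0.15 in 6335, 0.23 in 5995, -0.03 in 5905, 0.39 in 6493, 0.35 in 6163, 0.90 in 6065 and 0.44 in 5997. As for Cst13, mice 6065 and 5907 were highest and mouse 5905 lowest. Over all probes tested in testis the SD was 0.53 in 6065, 0.65 in 5907 and 0.32 in 5905. The mean was 0.39 ± 0.27 (SD, n = 10; limma adjusted p = 0.0181), above 0 in 9 of 10 mice, with 0.45 in Cy5 and 0.32 in Cy3. In 2 cord pools it was -0.17 and 0.07, too few values for the cord fit.

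The widest ratio of that list belonged to Stfa2l1, a stefin, at -0.75 ± 1.65 in testis (SD, n = 10; limma adjusted p = 0.309). It was -3.69 in mouse 5907 and -3.99 in mouse 6335, and the other 8 mice lay between -0.57 and 0.37. The mean was -0.42 without mouse 5907, -0.39 without mouse 6335 and 0.02 without both. It was above 0 in 5 mice and below 0 in 5, and the mean was -0.10 in Cy5 and -1.41 in Cy3. Its cord mean was -0.35 ± 0.90 (SD, n = 3; adjusted p = 0.705). Of 4 probes tested for the tissue difference, 1 was called lower in testis, beside 21.2% of all probes called in either direction. It was that of Cst7 (by -0.35, limma adjusted p = 0.0262), a gene named here after its value was seen. Without cord pool1 or without cord pool2 the number called on this list was 0, and in the paired fit it was also 0.

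A list of 23 cysteine proteases and related genes was represented by 14 probes of 12 genes. Most were cathepsins and legumain, the kinds of protease that cystatins inhibit, and the list also took in the calpains Capn1 and Capn2 and the protease-like gene Tinagl1. In testis 1 rose and 1 fell, a share near the 12.3% of all probes, with a median of -0.05. Ctsl, cathepsin L, a lysosomal protease that Sertoli cells secrete, was 0.41 in mouse 5906, 0.75 in 5907, 0.57 in 6069, 0.31 in 6335, 0.53 in 5995, 0.04 in 5905, 0.55 in 6493, 0.49 in 6163, 0.39 in 6065 and 0.34 in 5997. Every mouse was above 0 and mouse 5905 was again lowest. The mean was 0.44 ± 0.19 (SD, n = 10; limma adjusted p = 0.0057), 0.51 in Cy5 and 0.36 in Cy3, and it followed Cst12 across mice at r = 0.685, or 0.461 without mice 5905 and 5997. Ctsl also stands in the Sertoli list above. Its cord ratio was 0.61 in pool1 and 0.99 in pool2, too few values for the cord fit.

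Ctss, cathepsin S of macrophages and other antigen-presenting cells, fell by 0.20 on the log2 scale in testis (SD 0.18, n = 10; limma adjusted p = 0.0395), below 0 in 9 of 10 mice. Its Cy5 arrays averaged -0.47 and its Cy3 arrays 0.06. The adjusted p rose above the threshold, to between 0.0613 and 0.0752, without mouse 5906, 5907, 6069, 6335, 5995, 5905, 6493 or 6065. Ctss belongs to the macrophage list, whose testis median was -0.11. The cord ratio of Ctss was 0.18 in pool1 and 1.42 in pool2, again too few values for the cord fit.

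In cord, 0 of 11 protease probes was called, while their median ratio was 0.36 against -0.00317 for all probes. For the tissue difference, 6 of 11 were called lower in testis than in cord and 0 higher, where 21.2% of all probes were called in either direction, and in the paired fit 0 were called. Ctsk, cathepsin K, was 0.40 in pool1, 0.56 in pool2 and 0.54 in mouse 5995, against a testis mean of -0.02 ± 0.05 (SD, n = 10). The difference was -0.52 (limma adjusted p = 8.57e-04). Ctsw, a cathepsin of cytotoxic lymphocytes, was 0.19, 0.88 and 0.47 in the same cord RNAs and -0.13 ± 0.23 in testis, a difference of -0.65 (adjusted p = 0.0152). The other 4 probes, named after their values were seen, were those of Ctsz (-0.55, adjusted p = 0.0039), Lgmn (-0.52, adjusted p = 0.0040) and Ctsb (-0.50 and -0.61, adjusted p = 0.0451 and 0.0222). Beside this, 10 of 10 macrophage and microglia probes tested in cord had a mean above 0, with a median of 0.65. Over all 13 probes of that list, the medians of the 3 RNAs ran from 0.63 to 0.72. The cord median of the astrocyte list was 0.24 (14 of 19 probes above 0), that of the oligodendrocyte list -0.49 (0 of 6) and that of the neuron list -0.21 (1 of 8). The part of these cell types in the protease values was not tested.

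**Figure D4:**
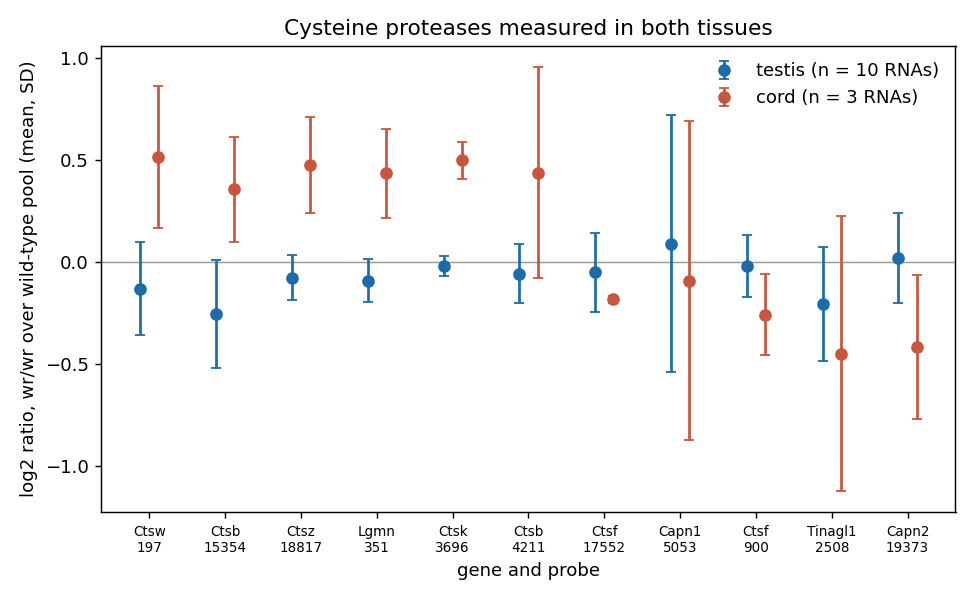
Mean log2 ratio with SD (vertical axis) of the 11 cysteine protease probes measured in both tissues, labelled by gene and probe number, for 10 testis RNAs (blue) and 3 cord RNAs (red). The 6 probes on the left have cord means from 0.36 to 0.52 and testis means at or below -0.02.

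A further list held lysosomal proteases of other classes, serpins and other protease inhibitors (Spink2, Spint2, A2m and Wfdc2), and gave 17 probes of 13 genes. None was called in testis, where their median was 0.02, and none of 14 was called in cord, where it was 0.31. For the tissue difference 3 of 14 were called lower in testis, both probes of Ctsd and the probe of Ctse, 2 aspartic proteases named after their values were seen, and 0 higher, a share near the 21.2% of all probes. Without cord pool2 that count was 1, and in the paired fit it was 0.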

How the data were processed

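Expression ratios of 5 cystatin probes were taken from 50 two-colour arrays (40 testis, 10 cord), with dye swaps balanced within each RNA. The authors' deposited log2 ratio per probe and array was used; how it was background-corrected, normalized and filtered is not given in the sources used here. RNA came from silica columns and was labelled indirectly, per the labels' protocols. Probes were named from the platform annotation: 14030 of 20355 had 1 symbol, 5 several and 6320 none. Arrays were median-centred and averaged per RNA as the report states. A testis probe needed both dyes in all but at most 2 mice, a cord probe in all 3 RNAs. Tests were limma 3.58.1 in R 4.3.3 against 0, with Benjamini-Hochberg adjustment at 0.05, checked on simulated data. Of 249 member values, 0 exceeded 10 in size. The number of arrays limits precision.

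The cystatins and every list were chosen with earlier results of these data known. The genes named are all members, list genes called in testis, the 2 list genes of largest mean in each tissue, and the 5 most like Cst12. Clu, Trf, Cst7, Ctsz, Lgmn, Ctsb, Ctsd and Ctse fall outside that rule and were named after their values were seen. The paired fit rests on the mouse identifiers. Cord and testis deviations of the same animals correlated at r = 0.00555 (pool1), 0.0302 (pool2) and -0.00363 (mouse 5995). No 2 arrays of 1 tissue and dye correlated below -0.3. That check stays within 1 dye orientation, so it cannot detect an orientation deposited with the opposite sign. Between the orientations, r was from -0.336 to -0.103 in cord. The alternatives were 1 dye only, no centring, arrays scaled to a common spread, values over 10 in size as missing, other or no rules on missing values, a plain mean over arrays, averaged probes, a replicate block, leaving out RNAs and, added after seeing the data, leaving out mice 5997 and 6065 together and turning the cord Cy3 arrays in sign.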

Additional observations from a re-analysis of the deposited data

Results flagged for a closer look

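Cst13 was above 0 in each of 10 testes and below 0 in each of 3 cord RNAs. Its testis minus cord difference of 0.94 is given without a test, because the testis ratios entered the choice of the gene. In cord pool1 and pool2 its Cy5 arrays averaged only -0.01 and -0.05. Whether the Cst13 signal in cord stood above background was not assessed. Ctsw differed between the tissues by -0.65 (limma adjusted p = 0.0152), and Ctsk by -0.52 (adjusted p = 8.57e-04). Both calls were lost in the paired fit, which rests on 3 differences per probe and called 0 of 16983 probes. The testis ratio of Ctsk in mouse 5906, -0.13, lay apart from the other 9 mice by 0.488 of the whole range. Such gaps are found in a small share of groups by chance, and 11 features were searched.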

How the results depend on the processing

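Of the 295 member values recomputed under alternatives, 283 moved by no more than the spread between RNAs. These include changes of sign where the value was smaller than that spread, such as Cst9 in cord without mouse 5995 (-0.24). Another 10 moved further, and 2 changed sign from a value larger than its spread. Leaving 1 RNA out cannot move the mean of a tissue by more than the spread between RNAs. Averaging probes returned the main value, as each member gene had 1 probe. The count of 283 is therefore not a measure of stability. The testis ratio of Cst12 stayed between 0.637 and 0.784 and that of Cst13 between 0.344 and 0.478 under all 21 alternatives run for each. With the cord Cy3 arrays turned in sign, chosen after seeing the data, the cord ratios became 0.0283 for Cst12, 0.25 for Cst13, -0.102 for Cst9, 0.448 for Cst3 and 0.403 for Cstb. With only Cy5 arrays, the cord ratio was 0.629 for Cst3 and 0.325 for Cstb, and testis minus cord -0.613 and -0.167. With only Cy3 arrays these were -0.267 and -0.480, and -0.083 and 0.421, and Ctss in testis was 0.0619. The cause of these moves was not tested.

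Testis calls numbered 1352 with only Cy3 arrays, 1256 with probes of a gene averaged (9866 genes) and 752 to 2580 without 1 mouse. Tissue-difference calls numbered 1604 with only Cy5 arrays, 1637 with probes averaged and 0 of 16983 with the replicate block that paired the RNAs of the same mice; that block also took the other cystatins, cysteine proteases and other lysosomal proteases to 0. In cord, limma called 0 probes under each of the 13 alternatives run. For the other cystatins, testis calls were 2 with only Cy5 and 2 with only Cy3 arrays, and difference calls 0 with only Cy3, 2 with values required in 2 of 3 cord RNAs, and 0 to 2 without 1 RNA. Testis calls of cysteine proteases were 1 with only Cy5, 1 with only Cy3 and 1 to 2 without 1 mouse. Those of the other lysosomal proteases were 1 without mice 5997 and 6065, with or without 5905; their difference calls were 1 with only Cy3 and 1 to 3 without 1 RNA. Cstl1 and Ctsl kept their testis calls in 21 of 21 alternatives. No intensities were used, so signal over background was not assessed.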
